A study of Mus musculus with 24 samples.

Results

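The subunits of the mitochondrial respiratory chain and of ATP synthase were examined in mouse embryonic fibroblasts (MEFs), connective tissue cells grown from mouse embryos. Members were taken by gene symbol from the deposited gene table, which gave 89 genes of the nuclear genome and 13 genes of the mitochondrial genome, or 102 of 55487 genes in all. The nuclear members comprised 38 genes of complex I (NADH dehydrogenase), 4 of complex II (succinate dehydrogenase), 8 of complex III (the cytochrome bc1 complex), 21 of complex IV (cytochrome c oxidase, with Ndufa4 and Ndufa4l2 placed there) and 18 of complex V (ATP synthase). The mitochondrial genome supplied 7, 1, 3 and 2 genes of complexes I, III, IV and V, and none of complex II. The rule uses symbols alone and no measured value.

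Complexes I to IV pass electrons from NADH and succinate to oxygen and, except for complex II, pump protons across the inner mitochondrial membrane, and ATP synthase lets the protons return to make ATP. Apart from complex II, each complex holds catalytic subunits and accessory subunits, many of them small, and joins products of the nuclear and mitochondrial genomes. AMPK, a kinase that responds to low energy, and MTOR, a kinase that responds to nutrients and growth factors, are both known to act on mitochondrial gene expression.

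Poly(A) RNA was sequenced in 24 libraries, 4 in each of 6 groups. The MEFs were wild-type (WT) or AMPK knockout (AMPK KO), which the methods of the study describe as a double knockout of prkaa1 and prkaa2, the genes of both AMPK catalytic subunits, made elsewhere and given to the authors. Cells of either genotype received the vehicle DMSO, the AMPK activator MK-8722 or the MTOR inhibitor torin1, and the study asked how far the transcriptional responses to both compounds need AMPK. WT libraries came from passages 12 to 15 and AMPK KO libraries from passages 16 to 19, with 1 library of each passage in each group. The genotypes thus shared neither passage nor cell line, and an effect of genotype cannot be told apart from one of line or passage. Nothing beyond the passage states that libraries came from separate cultures, so p-values measure the spread between these libraries. The main tests did not pair libraries by passage, and a block for passage was an alternative. In bulk RNA, fewer cells of a kind and less RNA per cell cannot be told apart.

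Total estimated counts ran from 26900240 to 34192685 per library, RNA integrity numbers from 9.7 to 10, and all libraries carried the same batch label, so no value within batches could be formed. The transcripts of the targeted genes do not check the genotype labels. Prkaa1 stood at 78.0 to 82.6 CPM (counts scaled to library size) in WT and at 66.9 to 73.3 CPM in AMPK KO under DMSO, and Prkaa2 at 3.22 to 5.71 and 2.34 to 4.49 CPM. Of 10 fibroblast markers, 6 to 8 reached a mean of 1 CPM in each group, and their sum was 11090 to 17100 CPM in WT against 4768 to 6833 CPM in AMPK KO. Markers of epithelial, leukocyte, endothelial and muscle or fat cells summed to at most 8.60 CPM in any library.

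In WT MEFs under DMSO the nuclear members together took 9535 ± 184 CPM (SD, n = 4) and the mitochondrial-encoded members 12790 ± 816 CPM. Levels of different genes were compared only as TPM, a share of transcripts that corrects for transcript length. On this scale, the median nuclear subunit of complex I stood at 140.3 TPM, of complex II at 127.5, of complex III at 281.8, of complex IV at 394.9 and of complex V at 312.3 TPM, over genes with detectable counts. Atp5b, the catalytic beta subunit of ATP synthase, had the highest nuclear level with 1990 TPM, and Cox4i1 led complex IV with 665 TPM. The mitochondrial-encoded transcripts ranged from 40.1 TPM for mt-Nd6 to 4392 TPM for mt-Atp8. mt-Atp8 (M:7766-7969) overlaps mt-Atp6 (M:7927-8607) on the same strand, so its level is less certain.

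Of the nuclear members, 81 passed the filter on low counts and were tested. The other 8 were the processed pseudogenes Ndufa11b, Ndufs6b and Cox6c2, and Cox4i2, Cox7b2, Cox8b, Cox8c and Ndufa4l2, none of which exceeded 12 counts in any library. All 13 mitochondrial-encoded genes were tested. Ndufb4c, also a processed pseudogene, shares sequence with Ndufb4, and Atp5o stands in the table under 2 overlapping gene identifiers, so counts of these genes are uncertain.

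Torin1 lowered nuclear-encoded subunits of every complex in both genotypes. Calls required that the adjusted p in edgeR's quasi-likelihood test was under 0.05 and that the level changed at least 1.2-fold. In WT, 49 of the 81 nuclear members were called lower and 1 higher, where 21.1% and 26.6% of all 15828 tested genes were called lower and higher. In AMPK KO, 53 were called lower and 1 higher, against 17.6% and 25.9% of all genes. With no fold required, 66 members were lower and 3 higher in WT, where 60.1% of all genes passed in either direction, and 67 and 3 in AMPK KO, where 57.2% passed. All torin1 libraries lay below all DMSO libraries for 64 members in WT and above them for 3, against 24.7% and 27.1% of all genes, and for 68 and 4 members in AMPK KO, against 23.7% and 30.1%. The median log2 fold change of the nuclear members was -0.36 in WT and -0.41 in AMPK KO, against 0.04 and 0.06 over all genes. Summed over the nuclear members, 9535 ± 184 CPM under DMSO became 7838 ± 165 CPM under torin1 in WT, and 9591 ± 207 CPM became 7664 ± 349 CPM in AMPK KO. With libraries scaled by their size alone, the median of all genes moved to 0.14 in WT and 0.12 in AMPK KO, and the nuclear medians were -0.26 and -0.34.

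The fall reached 21 of 36 tested genes of complex I in WT, with the processed pseudogene Ndufb4c among the 36. It reached 3 of 4 of complex II, 4 of 8 of complex III, 9 of 15 of complex IV and 12 of 18 of complex V. In AMPK KO the counts were 23, 3, 5, 9 and 13. Complex medians lay between -0.38 (complex IV) and -0.29 (complex III) in WT and between -0.47 (complex III) and -0.35 (complex II) in AMPK KO.

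**Figure D1:**
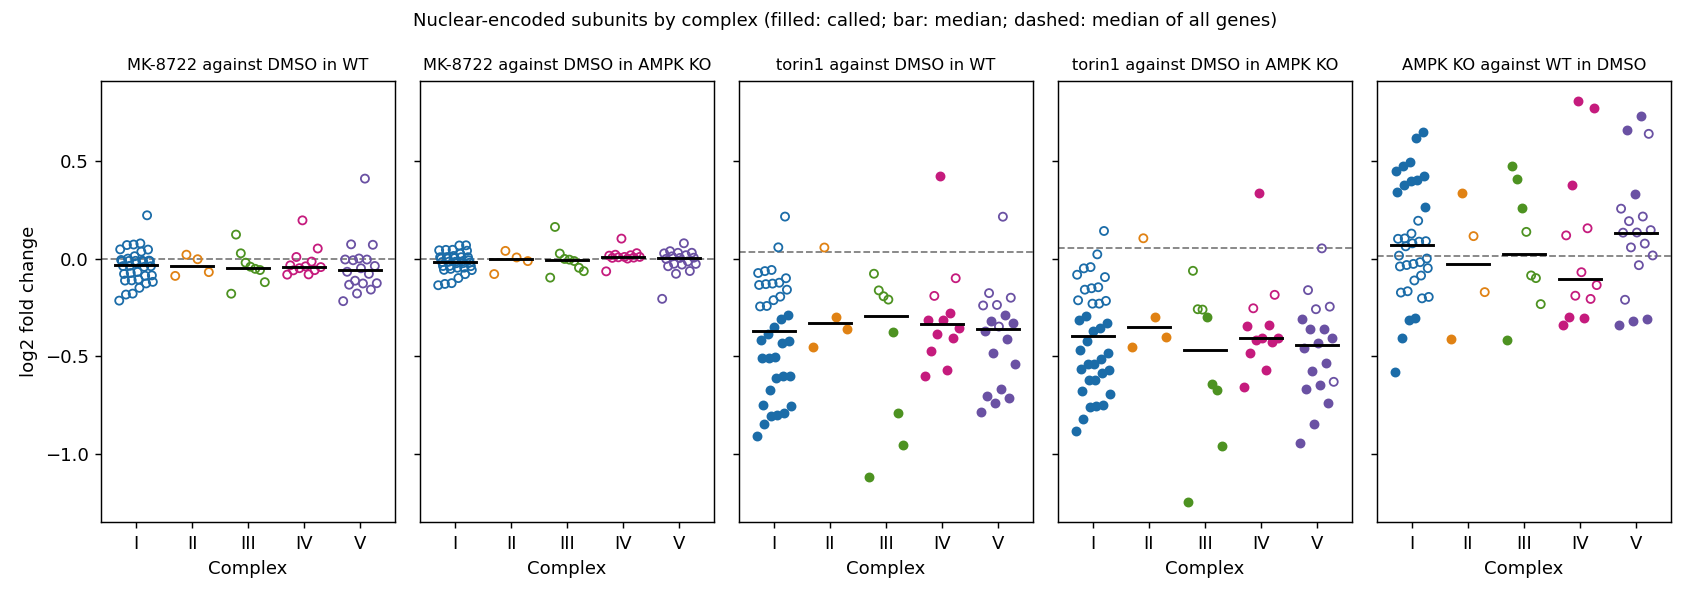
Log2 fold changes of the nuclear-encoded subunits by complex (I to V on the x axis) in 5 comparisons, with 1 point per gene, filled where called, a bar at the complex's median and a dashed line at the median of all tested genes. With torin1 the complex medians lie between -0.47 and -0.29, below the median of all genes, and with MK-8722 they lie near 0 with no filled point. Cox6a2, Cox6b2 and Cox7a1, present at under 3 CPM, are not drawn.

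In complex III the small subunits fell and the larger ones were not called. Their median transcript lengths were 521 and 1426 bases, so subunit and transcript length were not told apart. Uqcrq, a small subunit that sits on cytochrome b, had the largest called fall of any nuclear member in each genotype. It measured 85.0, 91.5, 90.2 and 103 CPM in the 4 WT DMSO libraries and 43.8, 45.1, 41.2 and 40.3 CPM under torin1. In AMPK KO it measured 126, 124, 136 and 128 CPM under DMSO and 49.2, 59.4, 52.8 and 55.1 CPM under torin1. All torin1 libraries thus lay below all DMSO libraries of their genotype. The log2 fold change was -1.12 ± 0.06 (SE; adjusted p = 6.6e-13) in WT and -1.25 ± 0.06 (adjusted p = 3.2e-13) in AMPK KO.

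Uqcr11, another small subunit of complex III, went from 73.5, 74.1, 76.6 and 67.8 CPM under DMSO to 36.5, 43.5, 32.7 and 37.9 CPM under torin1 in WT. In AMPK KO its values were 83.4, 82.9, 75.2 and 80.0 CPM, and 35.3, 48.0, 41.3 and 40.6 CPM under torin1. The groups did not overlap, and the log2 fold change was -0.96 ± 0.08 in both genotypes. Uqcrb, which binds next to the quinone site, fell by 0.79 on the log2 scale in WT and by 0.64 in AMPK KO. Uqcrh, the hinge protein of cytochrome c1, was called in AMPK KO (-0.30 ± 0.07) and not in WT (-0.16 ± 0.07). The larger subunits of the same complex were called in neither genotype. The core protein gene Uqcrc1 stood at -0.21 ± 0.05 and -0.26 ± 0.05, and Uqcrfs1, which encodes the Rieske iron-sulfur protein, at -0.19 ± 0.04 and -0.26 ± 0.04.

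Uqcr10, a small subunit with the shortest transcript of these, was the only nuclear member whose torin1 response was called different between the genotypes, where 2.92% of all genes were called lower and 4.15% higher in this interaction (7.07% in all). With no fold required, 1 member had a positive and 2 a negative interaction, where 9.87% of all genes passed. It had 55.3, 53.5, 56.7 and 53.5 CPM in WT DMSO libraries and 43.1, 41.7, 41.6 and 42.5 CPM in WT torin1 libraries. In AMPK KO it had 76.8, 70.6, 69.2 and 74.0 CPM under DMSO and 42.8, 48.7, 42.6 and 48.1 CPM under torin1. The starting level was higher in AMPK KO, the level under torin1 was close to that of WT, and the difference of the log2 fold changes was -0.30 ± 0.07 (adjusted p = 0.0058). Uqcr10 remained called lower under torin1 in AMPK KO when a trend with transcript length and GC content was removed, but not in WT (-0.19, a fold under 1.2).

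In complex I the falls were in accessory subunits for the most part. Of 29 tested accessory subunits, 20 were called lower in WT and 21 in AMPK KO, with median log2 fold changes of -0.42 and -0.48. These 29 genes include the processed pseudogene Ndufb4c. Of the 7 nuclear-encoded catalytic core subunits, 1 was called lower in WT and 2 in AMPK KO, with medians of -0.16 and -0.09. This grouping by role was made after the values were seen and carries no test. The median transcript length was 1140 bases for the core subunits and 603 for the accessory ones. Role and transcript length were thus not told apart.

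The core subunit with a large fall was Ndufs8, which holds iron-sulfur clusters on the path to ubiquinone. It measured 72.6, 72.7, 74.8 and 65.5 CPM in WT DMSO libraries and 41.2, 41.2, 40.5 and 35.9 CPM in WT torin1 libraries. AMPK KO gave 96.0, 94.4, 96.0 and 96.5 CPM under DMSO and 52.7, 60.6, 55.9 and 58.4 CPM under torin1. Ndufs8 fell in both genotypes without overlap, by 0.85 and 0.75 on the log2 scale. Ndufs7, its neighbour on the same electron path, was called in AMPK KO alone (-0.29 ± 0.06), and its value in WT was -0.24 ± 0.06. Ndufs1, the largest core subunit, stood at -0.16 and 0.02, and Ndufv1, which binds NADH, at -0.06 and -0.04.

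Ndufs6, a zinc-binding accessory subunit next to the NADH site, went from 45.3, 50.03, 58.7 and 50.4 CPM to 25.8, 27.2, 26.1 and 29.8 CPM under torin1 in WT. In AMPK KO Ndufs6 went from 33.5, 33.5, 34.0 and 35.9 CPM to 20.4, 22.5, 22.8 and 23.4 CPM. Its log2 fold changes were -0.91 ± 0.07 and -0.62 ± 0.07, and the difference of 0.29 ± 0.09 between the genotypes had an adjusted p of 0.053. Ndufa11, a membrane-arm subunit, fell by 0.80 and 0.82 on the log2 scale. Ndufb7, on the intermembrane-space side of that arm, fell by 0.79 and 0.88.

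Complex II has no mitochondrial-encoded subunit, and its 4 genes split under torin1. Sdhb, the iron-sulfur subunit, had 98.5, 98.7, 104.3 and 100.1 CPM under DMSO and 72.4, 73.8, 73.9 and 73.8 CPM under torin1 in WT, a log2 fold change of -0.45 ± 0.04. Sdhc and Sdhd, the membrane anchors, fell by 0.30 and 0.36 on the log2 scale in WT and by 0.40 and 0.45 in AMPK KO, where Sdhb fell by 0.30. That AMPK KO call of Sdhb was lost with libraries scaled by their size alone and with a trend in length and GC content removed. Sdha, the flavoprotein that oxidizes succinate, measured 234, 231, 242 and 252 CPM under DMSO and 252.5, 236, 258 and 252.4 CPM under torin1 in WT. These Sdha groups overlapped, and its log2 fold changes were 0.06 ± 0.04 (adjusted p = 0.16) in WT and 0.11 ± 0.04 in AMPK KO, the latter under the required fold.

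In complex IV, torin1 lowered Cox5a by 0.57 on the log2 scale in both genotypes, Cox8a by 0.60 and 0.66, Ndufa4 by 0.47 and 0.48, and Cox6a1 by 0.40 in each. Cox4i1, the most abundant nuclear subunit of this complex, stood at -0.10 ± 0.03 and -0.18 ± 0.03 and was not called. Cox7a2l, a factor known to tie complexes III and IV into supercomplexes, was the only nuclear member called higher in either genotype. It measured 98.2, 97.4, 100.5 and 113 CPM under DMSO and 140, 136, 137 and 135 CPM under torin1 in WT. In AMPK KO it measured 91.0, 90.7, 93.2 and 84.2 CPM, and 113, 120, 111 and 111 CPM under torin1. Every torin1 library lay above every DMSO library of its genotype, and the log2 fold changes were 0.42 ± 0.05 (adjusted p = 4.8e-08) and 0.34 ± 0.05 (adjusted p = 1.8e-06). Its homologue Cox7a2, a structural subunit, fell by 0.39 and 0.41. With a trend in length and GC content removed, Cox7a2 lost its call in both genotypes and Cox6a1 in AMPK KO. Without AMPK KO DMSO replicate 4 the fold of Cox7a2l in AMPK KO dropped under 1.2, and its call in WT held in every alternative.

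In ATP synthase, the 5 small membrane subunits were all called lower in both genotypes, with medians of -0.67 and -0.65. Among them Atp5k (subunit e) fell by 0.70 and 0.85 on the log2 scale and Atp5md by 0.74 and 0.65. In the F1 head, 2 of 5 subunits were called lower in WT and 3 in AMPK KO. The median transcript length was 1140 bases for the F1 head and 373 for the small membrane subunits. The alpha subunit gene Atp5a1 stood at -0.20 ± 0.04 and -0.24 ± 0.04, and the catalytic beta subunit gene Atp5b at -0.18 ± 0.04 and -0.16 ± 0.04, neither called. Of the 4 peripheral stalk subunits, 3 were called lower in each genotype.

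**Figure D2:**
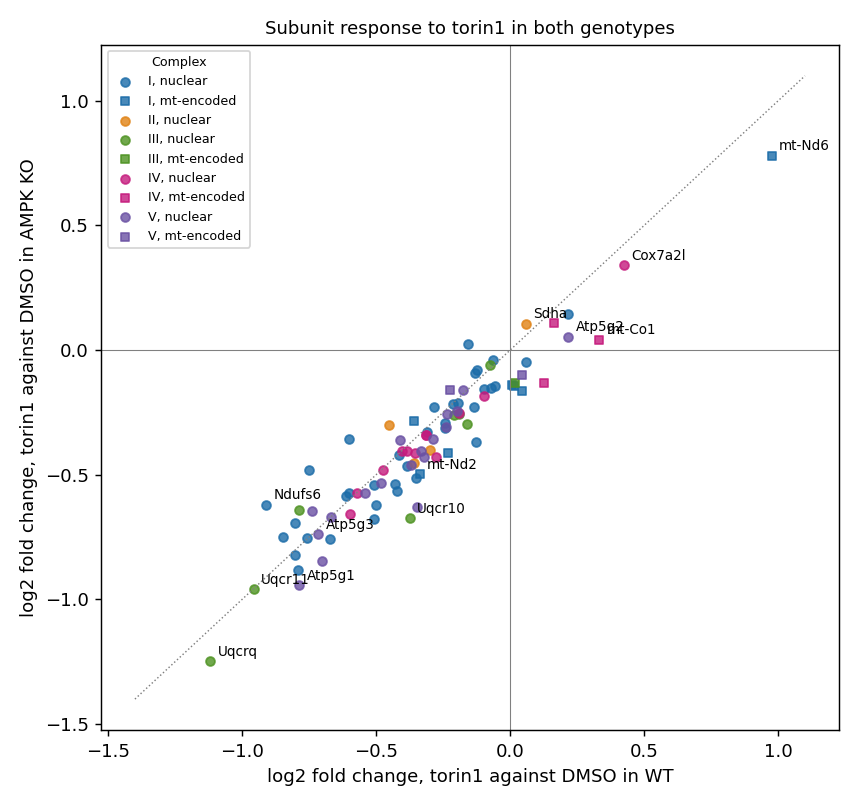
Log2 fold changes with torin1 in WT (x axis) and in AMPK KO (y axis), with 1 point per member, circles for nuclear and squares for mitochondrial-encoded members. Of the 49 nuclear members called lower in WT, 48 were also called lower in AMPK KO. Cox6a2, Cox6b2 and Cox7a1 are not drawn.

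The torin1 responses of the genotypes, which share no library, followed each other. The 48 nuclear members called lower in both made up 98.0% of those called in WT and 90.6% of those called in AMPK KO, and 78 of 81 had the same sign. Over the 81 members, Pearson's r of the log2 fold changes was 0.787 and Spearman's rho 0.907, given as a description since genes are not independent. Ndufb3 was called in WT alone, and Ndufa7, Ndufb9, Ndufs7, Uqcrh and Atp5c1 in AMPK KO alone. Such a split is not a difference between the genotypes, and of these 6 the interaction of Ndufa7 alone had an adjusted p under 0.05 (-0.24 ± 0.07, adjusted p = 0.02), under the required fold.

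The c subunit of ATP synthase, whose ring turns as protons pass, is made from 3 nuclear genes. Atp5g1, Atp5g2 and Atp5g3 encode precursors with different import sequences that are cut to the same mature protein, and they responded unequally. Atp5g1 measured 124, 110, 121 and 111 CPM in WT DMSO libraries and 73.2, 69.8, 62.5 and 64.2 CPM in WT torin1 libraries. Atp5g3 measured 245, 234, 250 and 221 CPM, and 138, 154, 142 and 144 CPM under torin1. Both fell without overlap, with log2 fold changes in WT of -0.79 ± 0.06 for Atp5g1 and -0.72 ± 0.05 for Atp5g3, and in AMPK KO of -0.94 ± 0.06 for Atp5g1 and -0.74 ± 0.05 for Atp5g3. Atp5g2 measured 114, 106, 113 and 109 CPM under DMSO and 133, 126, 127 and 128 CPM under torin1 in WT. Its groups lay apart in the other direction in WT, with 0.22 ± 0.04 (adjusted p = 0.00015, a fold under 1.2), and overlapped in AMPK KO at 0.05 ± 0.04.

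On the TPM scale, Atp5g2 made up 25.0 ± 0.70% (SD, n = 4) of the summed transcripts of the 3 genes in WT under DMSO and 39.0 ± 1.1% under torin1. In AMPK KO its share was 33.5 ± 0.63% under DMSO and 48.2 ± 1.7% under torin1. The shares did not overlap between DMSO and torin1 in either genotype, with at most 26.0% against at least 37.6% in WT and at most 34.2% against at least 45.7% in AMPK KO. The sum of the 3 genes was 1247 ± 55 TPM under DMSO and 984 ± 33 TPM under torin1 in WT, and 1668 ± 36 and 1277 ± 43 TPM in AMPK KO.

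The promoters of this trio are shown because the genes encode 1 mature protein and moved unequally. Sequences are the 250 bases before the transcription start in RefSeq on GRCm38.p6, 5′ to 3′ on the gene's strand, with matched motifs in capitals. The Atp5g2 window lies inside the annotated gene, whose 5′ end is at 102672352, and so precedes an internal start. Searched on both strands were the NRF1 palindrome, CCGGAAG (ETS family), AAGATGGCG (YY1), TCAAGGTCA (estrogen-related receptors), CACGTG (E-box) and CCAAT. Atp5g1 (chr11:96075632-96075881, minus strand) holds CCAAT on both strands and an E-box, Atp5g2 (chr15:102671048-102671297, minus strand) the NRF1 motif, and Atp5g3 (chr2:73911327-73911576, minus strand) an E-box, CCAAT and, on the opposite strand, the receptor motif.
Atp5g1: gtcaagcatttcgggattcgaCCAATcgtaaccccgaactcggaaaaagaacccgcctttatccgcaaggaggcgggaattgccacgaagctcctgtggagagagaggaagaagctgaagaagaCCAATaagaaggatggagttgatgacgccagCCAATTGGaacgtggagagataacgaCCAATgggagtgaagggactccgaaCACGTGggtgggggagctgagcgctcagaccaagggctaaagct
Atp5g2: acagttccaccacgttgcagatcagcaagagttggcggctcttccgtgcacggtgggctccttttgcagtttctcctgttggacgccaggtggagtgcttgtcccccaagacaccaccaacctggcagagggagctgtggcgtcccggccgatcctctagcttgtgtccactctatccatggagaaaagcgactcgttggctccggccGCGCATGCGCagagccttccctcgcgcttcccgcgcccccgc
Atp5g3: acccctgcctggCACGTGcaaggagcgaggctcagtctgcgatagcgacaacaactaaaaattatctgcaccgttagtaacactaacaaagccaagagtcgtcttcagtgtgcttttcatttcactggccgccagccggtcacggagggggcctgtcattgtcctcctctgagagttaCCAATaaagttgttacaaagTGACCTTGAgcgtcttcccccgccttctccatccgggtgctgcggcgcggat

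RefSeq promoters were matched for 68 nuclear members and not for 20 further symbols. Of 73 promoter windows of members, 65 had a stretch after the start that lies in a transcript of the gene on its strand. The NRF1 motif was present in the promoters of 4 of the 68 members (5.88%), against 0.877% of 27025 genes with a promoter in the same table. The ETS motif was present in 12 (17.6%, against 7.83%), the YY1 motif in 1 (1.47%, against 0.71%), the receptor motif in 1 (1.47%, against 0.422%), the E-box in 6 (8.82%, against 6.86%) and CCAAT in 30 (44.1%, against 37.5%). A member that fell and one that rose are shown for comparison, Uqcr11 (chr10:80406822-80407071, minus strand), which holds the ETS motif, and Cox7a2l (chr17:83514334-83514583, minus strand), which holds none of the 6. The Cox7a2l window, like that of Atp5g2, lies inside the annotated gene, whose 5′ end is at 83517330. Matches describe letters in a window and are not binding sites.
Uqcr11: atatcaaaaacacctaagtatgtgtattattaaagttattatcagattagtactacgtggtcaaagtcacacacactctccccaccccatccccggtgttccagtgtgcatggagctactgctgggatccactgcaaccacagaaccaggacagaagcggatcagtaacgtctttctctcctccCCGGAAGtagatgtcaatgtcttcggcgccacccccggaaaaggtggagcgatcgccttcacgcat
Cox7a2l: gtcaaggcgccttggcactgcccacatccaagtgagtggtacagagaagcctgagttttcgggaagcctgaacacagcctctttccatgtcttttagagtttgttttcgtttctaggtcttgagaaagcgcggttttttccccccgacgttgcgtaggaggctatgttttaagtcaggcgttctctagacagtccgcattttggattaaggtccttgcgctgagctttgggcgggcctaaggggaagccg

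**Figure D3:**
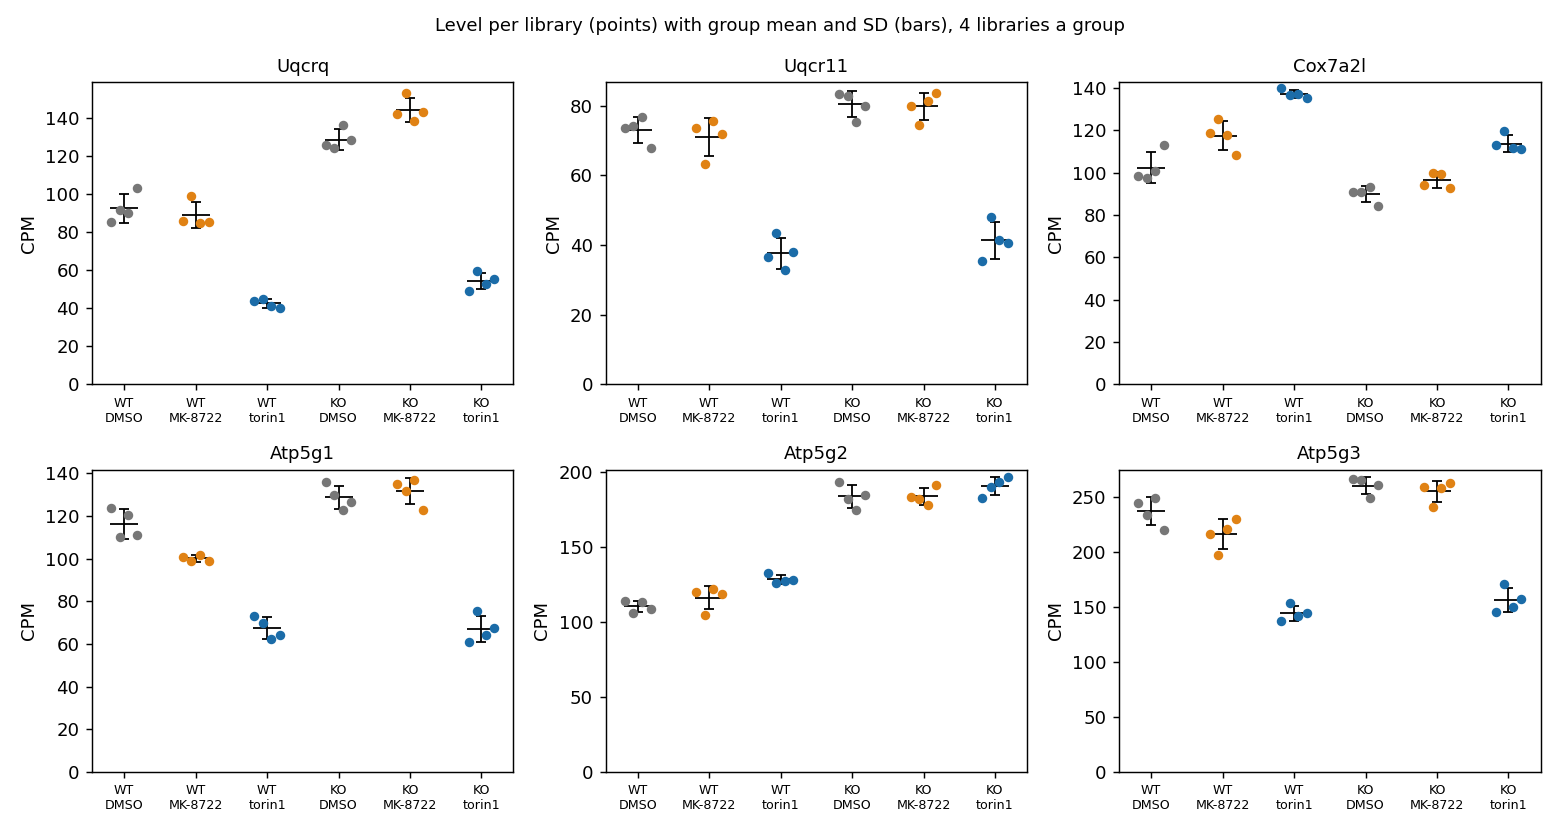
CPM of Uqcrq, Uqcr11, Cox7a2l, Atp5g1, Atp5g2 and Atp5g3 in every library of the 6 groups, with the group mean and SD (n = 4) and each axis starting at 0. Torin1 libraries lie below the DMSO libraries of their genotype for Uqcrq, Uqcr11, Atp5g1 and Atp5g3 and above them for Cox7a2l.

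Transcript length moved with the torin1 response. The nuclear members tested have a median transcript length of 659 bases, against 2169 bases over all tested genes. Among the members the shorter ones had the lower log2 fold changes, with Pearson's r of 0.492 and Spearman's rho of 0.507 between log2 length and log2 fold change in WT, and 0.564 and 0.571 in AMPK KO, over 78 members without Cox6a2, Cox6b2 and Cox7a1. Other genes of 500 to 750 bases were called lower in 20.8% of cases in WT and 21.6% in AMPK KO, and members of that length in 27 of 37 (73%) and 30 of 37 (81.1%). From 1000 to 2000 bases the shares were 22.1% and 19.9% for other genes and 4 of 16 (25%) and 5 of 16 (31.2%) for members. With a trend in length and GC content removed from each library, the median of the nuclear members was -0.23 in WT and -0.27 in AMPK KO. In that setting 35 and 38 members were called lower, against 21.4% and 17.7% of all genes. The part of length in the response was not tested further.

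**Figure D4:**
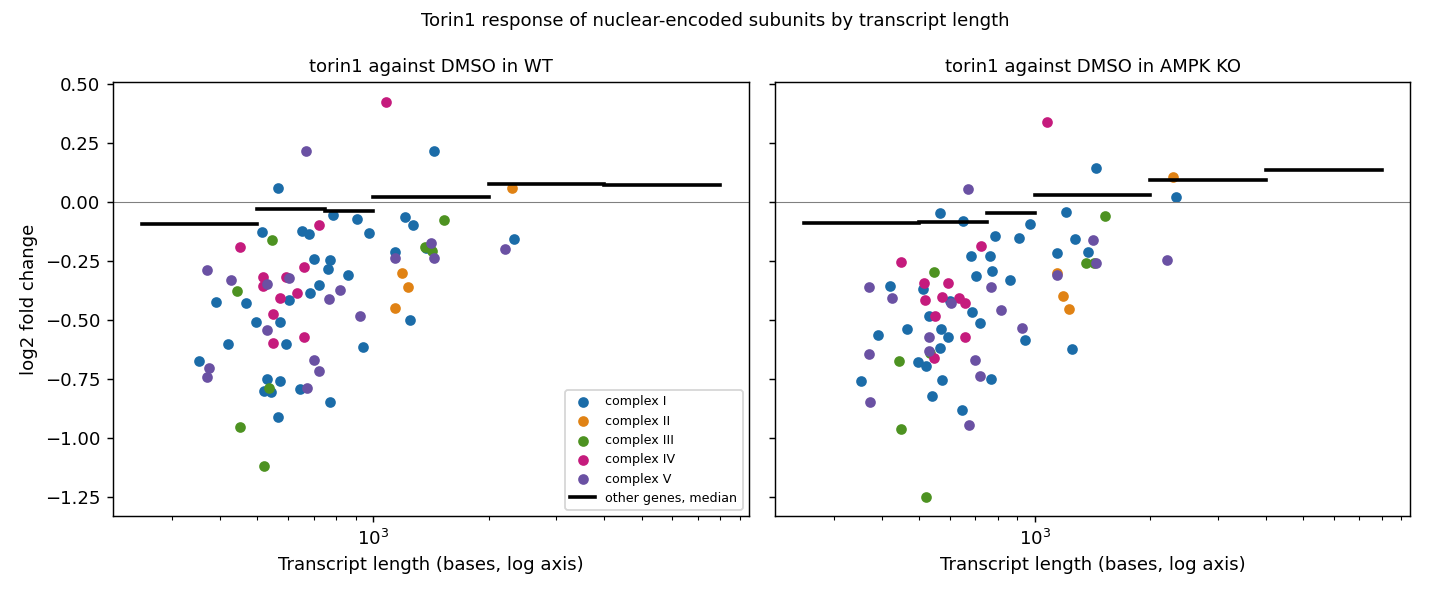
Log2 fold change with torin1 in WT and in AMPK KO (y axes) against transcript length in bases (x axis, log scale) for the nuclear members, with black bars at the median of the other tested genes in each length class. Below 1000 bases most members lie under the bars, and from 1000 to 2000 bases they lie closer to them.

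Under DMSO, AMPK KO and WT differed in many nuclear members, in both directions. Of the 81, 23 were called higher in AMPK KO and 12 lower, where 30.9% and 26% of all genes were called higher and lower (56.9% in all), and the median of 0.08 was close to 0.02 over all genes. By complex, 11 and 4 members of complex I were higher and lower, 1 and 1 of complex II, 3 and 1 of complex III, 5 and 3 of complex IV and 3 and 3 of complex V. With libraries scaled by their size alone, the split became 34 higher and 4 lower, against 38.4% and 18.6% of all genes. The median of all genes moved to 0.15 in that setting. With no fold required, 35 members were higher and 24 lower, where 69.5% of all genes passed. The groups did not overlap for 31 members higher and 24 lower in AMPK KO, against 33.3% and 30.7% of all genes.

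Cox6b1, a complex IV subunit on the intermembrane-space side, measured 106, 103, 113 and 103 CPM in WT and 189, 188, 180.1 and 188 CPM in AMPK KO, a log2 difference of 0.81 ± 0.05 (adjusted p = 1.2e-13). Cox8a, a single-span subunit of the same complex, measured 153, 152, 163 and 143 CPM in WT and 269.7, 264, 245 and 267 CPM in AMPK KO, a difference of 0.78 ± 0.05. Atp5g2 was higher by 0.73 ± 0.04 and Atp5e, the epsilon subunit of ATP synthase, by 0.66 ± 0.07. In complex I, Ndufa6 and Ndufb9, both of the LYR family of small accessory proteins, were higher by 0.65 ± 0.04 and 0.62 ± 0.04. None of these groups overlapped. Ndufv1, which binds NADH, had 120.3, 125, 121 and 118 CPM in WT and 169, 169, 172.5 and 172 CPM in AMPK KO, a difference of 0.50 ± 0.04.

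Lower in AMPK KO were Ndufs6 (-0.58 ± 0.07), Uqcrb (-0.42 ± 0.07), Sdha (-0.41 ± 0.04), Ndufv3, an accessory subunit at the NADH end of complex I (-0.41 ± 0.06), and Cox7b (-0.34 ± 0.05). Sdha measured 234, 231, 242 and 252 CPM in WT and 181.5, 178, 179 and 183 CPM in AMPK KO, with no overlap. Atp5a1 was lower by 0.34 ± 0.04, and Atp5b, at -0.21 ± 0.04, missed the required fold. The calls of Cox7b and Atp5a1 were lost with libraries scaled by their size alone, and those of Cox7b and Uqcrb with the trend in length and GC content removed. Fibroblast markers summed lower in AMPK KO than in WT, and their part in these differences was not tested.

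The tissue isoforms of complex IV were at or near the detection limit. In WT under DMSO, Cox4i1 stood at 665 TPM and its lung-enriched form Cox4i2 was listed at 0, Cox8a stood at 558.4 TPM and Cox8b and Cox8c were listed at 0, and Ndufa4 stood at 446 TPM and Ndufa4l2 at 0.143. Cox6a1 had 617.5 TPM against 0.693 for Cox6a2, the heart and muscle form. Cox6b1 had 431.1 TPM against 0.398 for the testis form Cox6b2. Cox7a2 had 294.3 TPM, Cox7a2l 160.9 and the heart and muscle form Cox7a1 0.515. Among the rare forms, Cox7a1 measured 0.0702, 0.11, 0.108 and 0.0628 CPM in WT and 0.523, 0.842, 0.671 and 0.90 CPM in AMPK KO, a log2 difference of 3.02 ± 0.38 (adjusted p = 1.7e-07). Cox6b2 measured 0.0351, 0.146, 0.072 and 0.126 CPM in WT and 0.589, 0.485, 0.549 and 0.54 CPM in AMPK KO, a difference of 2.46 ± 0.35. Both forms stayed below 1 CPM in every library. Cox6a2 was not called between the genotypes.

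MK-8722 called no nuclear member in either genotype. With passage as a block within genotype, Cox6a2, at no more than 2.17 CPM in any library, was called higher in WT (1.14 ± 0.39, adjusted p = 0.0291) and in AMPK KO (adjusted p = 0.00295). With the trend in length and GC content removed, Ndufa6 was called higher in WT (0.27). In WT, 15.7% of all genes were called (10% higher and 5.66% lower), and in AMPK KO 1.56% (0.866% higher and 0.695% lower). With no fold required, 3 nuclear members were higher and 10 lower in WT (28.1% of all genes passed), and 0 in either direction in AMPK KO (2.67% passed). An unadjusted p under 0.05 was found for 3 higher and 18 lower in WT and for 3 higher and 4 lower in AMPK KO, and DESeq2 also called 0 at the same fold. The share of all genes at this unadjusted threshold was not formed, so these counts cannot be set against a background. MK-8722 and DMSO libraries did not overlap for 1 member higher and 12 lower in WT, against 13.7% and 11.8% of all genes, and for 1 and 4 in AMPK KO, against 6.1% and 5.6%. The sum of the nuclear members was 9268 ± 204 CPM in WT with MK-8722 and 9557 ± 103 CPM in AMPK KO, against 9535 ± 184 and 9591 ± 207 CPM under DMSO. No interaction of MK-8722 with genotype was called for a nuclear member, against 12.8% of all genes (5.12% higher and 7.66% lower in AMPK KO relative to WT). With no fold required, 2 were positive and 1 negative, where 16.7% of all genes passed. Unadjusted p was under 0.05 for 5 positive and 3 negative interactions, again without a share of all genes, and DESeq2 called 0.

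With MK-8722 in WT, 3 nuclear members were higher and 10 lower with no fold required, and part of them are named here. Ndufa6 measured 39.7, 38.9, 41.1 and 41.9 CPM under DMSO and 45.8, 48.3, 47.6 and 47.1 CPM with MK-8722 in WT. Its groups did not overlap, and its log2 fold change was 0.22 ± 0.04 (adjusted p = 7.6e-05), a fold under 1.2. Atp5g1 had 101, 98.8, 102 and 98.9 CPM with MK-8722 in WT, below all 4 DMSO libraries, with -0.22 ± 0.06 (adjusted p = 0.0067). Cox7a2l stood at 0.20 ± 0.05 (adjusted p = 0.0029). In AMPK KO the same genes had log2 fold changes of -0.01, 0.03 and 0.10, and the differences of the responses were -0.24 ± 0.05 (adjusted p = 0.0028) for Ndufa6, 0.25 ± 0.08 (adjusted p = 0.039) for Atp5g1 and -0.09 ± 0.07 (adjusted p = 0.39) for Cox7a2l. All of these lay under the required fold, as did Ndufa11 in WT, at -0.21 ± 0.05 (adjusted p = 0.00335). Ndufa11 had 49.64, 50.19, 49.17 and 49.65 CPM with MK-8722 in WT, below all 4 DMSO libraries.

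The mitochondrial-encoded members behaved apart from the nuclear ones under torin1. In WT 2 of 13 were called higher and 2 lower (15.4% each, against 26.6% and 21.1% of all genes), and in AMPK KO 1 higher and 3 lower (7.69% and 23.1%, against 25.9% and 17.6%), with medians of 0.02 and -0.14. Their sum was 12790 ± 816 CPM under DMSO and 13210 ± 1199 CPM under torin1 in WT, and 13290 ± 1173 and 12080 ± 1489 CPM in AMPK KO, changes within the spread of the libraries. These genes are cut from long shared precursors, so they are not independent of one another.

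mt-Nd6 had the largest measured rise under torin1, in both genotypes. It is the only protein gene on the light strand of the mitochondrial genome (M:13552-14070 on the minus strand), and its 3′ end overlaps mt-Nd5 on the other strand. It measured 8.57, 8.92, 11.5 and 11.8 CPM under DMSO and 17.2, 12.4, 25.5 and 25.2 CPM under torin1 in WT. AMPK KO libraries gave 11.2, 11.3, 13.9 and 13.2 CPM, and 21.7, 17.1, 24.9 and 21.5 CPM under torin1. The groups did not overlap, and the log2 fold changes were 0.98 ± 0.18 (adjusted p = 5.7e-05) and 0.78 ± 0.18 (adjusted p = 0.00059). Whether counting used the strand of the reads is not given in the sources used here, so reads of both strands cannot be told apart there. The gene had 186 to 862 counts per library. Poly(A) RNA was sequenced, and whether this transcript was captured alike in all groups was not tested.

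Among the complex I genes of the heavy strand, mt-Nd2 and mt-Nd3 fell with torin1 in both genotypes and mt-Nd1 in AMPK KO. mt-Nd2 had 1074, 1124, 945 and 962 CPM under DMSO and 716, 784, 815 and 933 CPM under torin1 in WT, a log2 fold change of -0.34 ± 0.10. In AMPK KO, where its DMSO libraries had 809.5, 1019, 1021 and 1018 CPM and its torin1 libraries 771, 779.6, 597.5 and 589 CPM, the log2 fold change was -0.50 ± 0.10 (adjusted p = 0.00012). mt-Nd1 was called in AMPK KO (-0.41 ± 0.08) and not in WT (-0.23 ± 0.08, a fold under 1.2). mt-Nd3 fell by 0.36 on the log2 scale in WT and by 0.29 in AMPK KO. The WT calls of mt-Nd2 and mt-Nd3 were lost with libraries scaled by their size alone, that of mt-Nd2 also without WT torin1 replicate 1. The AMPK KO call of mt-Nd3 was lost under the same scaling, and without AMPK KO DMSO replicate 2 or torin1 replicate 3.

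mt-Co1, the catalytic subunit of complex IV, was higher in WT with both compounds. It measured 2819, 3148, 2769 and 2980 CPM under DMSO, 4290, 3397, 3475 and 3861 CPM with MK-8722 and 3465, 3543, 3517 and 4231 CPM with torin1. Neither treated group overlapped DMSO, and the log2 fold changes, which share the DMSO libraries, were 0.36 ± 0.08 (adjusted p = 0.0021) and 0.33 ± 0.08 (adjusted p = 0.0014). AMPK KO libraries had 2715, 3375, 3191 and 2950 CPM under DMSO, 3531, 3852, 3779 and 3614 CPM with MK-8722 and 3570, 3313, 2861 and 2847 CPM with torin1. The AMPK KO changes of 0.27 ± 0.08 (adjusted p = 0.077) and 0.04 ± 0.08 were not called, and neither interaction was called (adjusted p of 0.70 and 0.12). For the MK-8722 change of mt-Co1 in AMPK KO, the adjusted p was 0.0437 with no filter on low counts, 0.0324 in DESeq2's Wald test and 0.0047 with a passage block, each a call. The torin1 call in WT was lost without WT torin1 replicate 4.

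With MK-8722 in WT, mt-Nd1 fell by 0.26 on the log2 scale (SE 0.08, adjusted p = 0.02), from 2117, 2246, 1940 and 1830 CPM to 1833, 1587, 1590 and 1761 CPM, groups that overlap in 1 library. mt-Nd2 also fell by 0.26 (SE 0.10, adjusted p = 0.046). In AMPK KO mt-Nd1 had 1892, 2294, 2112 and 2119 CPM under DMSO and 2104, 2185, 2537 and 2077 CPM with MK-8722, and its response differed from that in WT by 0.35 ± 0.12 (adjusted p = 0.047). All 7 mitochondrial-encoded complex I genes had negative log2 fold changes in WT and positive ones in AMPK KO. The other 6 interactions were not called. The positive sign was not particular to complex I, since all 13 mitochondrial-encoded members were positive with MK-8722 in AMPK KO. AMPK KO DMSO replicate 1 had 1.18% of its counts in these members, against at least 1.387% in the other AMPK KO DMSO libraries. Leaving out 1 library at a time ended the WT call of mt-Nd1 in 4 of 8 cases and that of mt-Nd2 in 6 of 8, and the interaction of mt-Nd1 in 9 of 16. Between the genotypes under DMSO, mt-Nd3 alone was called, higher in AMPK KO by 0.40 ± 0.10 (adjusted p = 0.00092). That is 7.69% of these members higher and 0% lower, against 30.9% and 26% of all genes. With MK-8722 in WT, 1 mitochondrial-encoded member was called higher and 2 lower (7.69% and 15.4%, against 10% and 5.66% of all genes). In AMPK KO 0 were called, against 0.866% and 0.695% of all genes. The MK-8722 interaction was called higher for 1 of them (7.69%, against 5.12% of all genes).

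**Figure D5:**
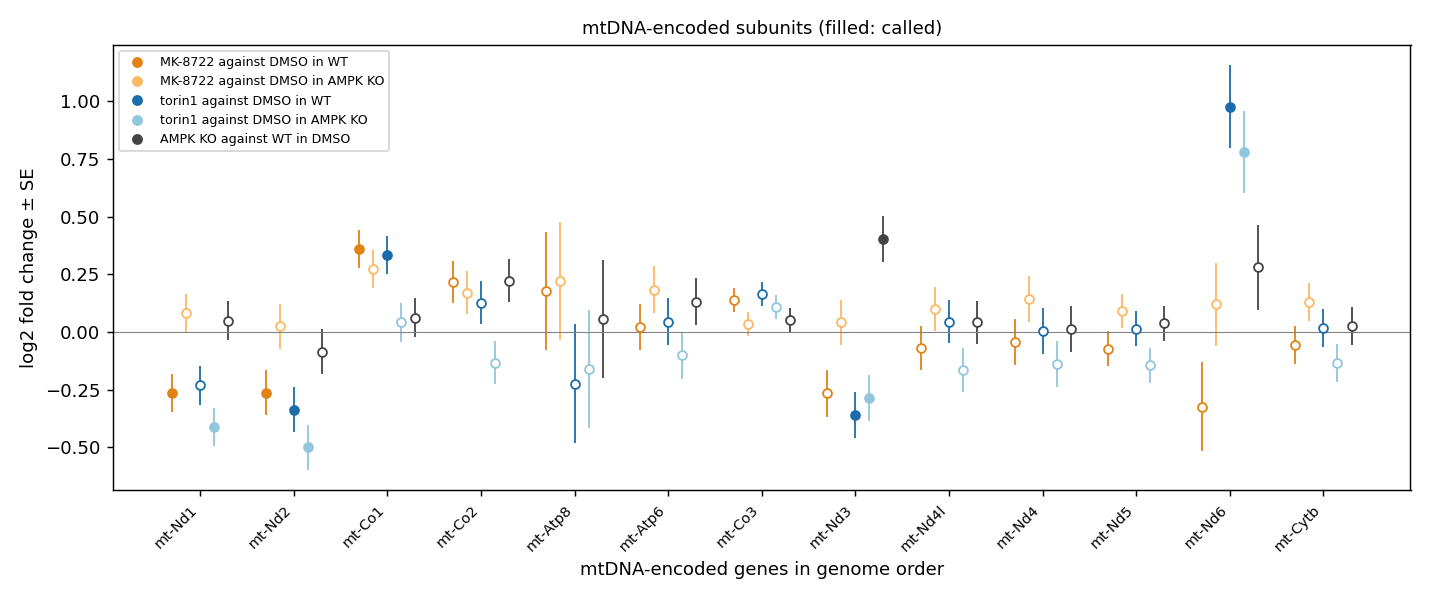
Log2 fold changes with SE of the 13 mitochondrial-encoded members in genome order (x axis) in 5 comparisons, filled where called. With torin1, mt-Nd6 rises in both genotypes (0.98 and 0.78), and mt-Nd1, mt-Nd2 and mt-Nd3 lie below 0 in both.

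Other genes of the pathway were followed by 4 lists drawn from general knowledge. Of 13 tested electron carriers and subunits that the symbol rule leaves out, 7 were called lower with torin1 in WT (53.8%, against 21.1% of all genes) and 10 in AMPK KO (76.9%, against 17.6%), and in each genotype 1 was higher at an adjusted p under 0.05 with no fold required. Cycs, somatic cytochrome c, which carries electrons from complex III to complex IV, had 127, 128, 138 and 142 CPM under DMSO and 45.6, 52.8, 54.2 and 60.4 CPM under torin1 in WT. AMPK KO libraries had 156.5, 167, 158 and 157 CPM, and 67.1, 77.3, 69.9 and 72.2 CPM under torin1. Its falls of 1.33 and 1.16 on the log2 scale were larger in size than that of any nuclear subunit called in WT, and in AMPK KO than that of any but Uqcrq. Cyc1, the cytochrome c1 of complex III, fell by 0.74 in both genotypes. Higd1a, a small protein that associates with complex IV, fell by 1.46 and 1.09, with a called difference of 0.37 ± 0.09 between the genotypes (adjusted p = 0.0074).

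The 51 assembly factors, which build the complexes, were split. With torin1, 12 were called higher and 12 lower in WT (23.5% each, near the 26.6% and 21.1% of all genes), and 8 and 19 in AMPK KO (15.7% and 37.3%, against 25.9% and 17.6%), with medians of -0.12 and -0.18. Ndufaf4, a complex I assembly factor, fell by 0.96 and 0.81 on the log2 scale, and Cox10, which makes the heme of complex IV, by 0.79 in WT. Cmc1, a complex IV assembly factor, rose by 0.78 ± 0.10 and 0.76 ± 0.11. Between the genotypes, 22 were higher in AMPK KO and 5 lower (43.1% and 9.8%, against 30.9% and 26% of all genes). Cox14, which helps to make mt-Co1 protein, had 16.3, 14.8, 16.6 and 14.4 CPM in WT and 42.9, 40.6, 37.3 and 39.98 CPM in AMPK KO, a log2 difference of 1.37 ± 0.06. With MK-8722 in WT 7 assembly factors (13.7%, against 10% of all genes) were called higher (with no fold required, 10 were higher and 4 lower), with Lyrm7, which matures the Rieske protein, at 0.66 ± 0.13 and Cmc1 at 0.55 ± 0.10.

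The 30 genes of mitochondrial DNA expression had 9 higher and 8 lower with torin1 in WT (30% and 26.7%) and 8 and 6 in AMPK KO (26.7% and 20%), shares near those of all genes. Tfb1m, which methylates mitochondrial ribosomal RNA, rose from 5.44, 5.52, 5.62 and 6.66 CPM to 14.1, 10.2, 13.5 and 12.4 CPM in WT, a log2 fold change of 1.11 ± 0.14, and by 0.61 ± 0.13 in AMPK KO. Of 15 nuclear regulators of respiratory genes, 1 was higher and 8 lower with torin1 in WT (6.67% and 53.3%), and 1 and 4 in AMPK KO (6.67% and 26.7%), where 21.1% and 17.6% of all genes were lower. Nrf1, a transcription factor of respiratory genes, fell by 0.60 and 0.40 on the log2 scale. Ppargc1a, a coactivator of such factors, had 0.597, 0.622, 0.792 and 0.502 CPM under DMSO and 1.70, 1.46, 1.95 and 1.76 CPM under torin1 in WT, a log2 fold change of 1.45 ± 0.28, and 0.16 ± 0.28 in AMPK KO. The difference of -1.29 ± 0.40 was called (adjusted p = 0.042), and leaving out 1 library ended that call in 11 of 16 cases. With MK-8722 in WT, Ppargc1b, a related coactivator, rose by 1.30 ± 0.23, from 0.667, 0.878, 0.901 and 1.04 CPM to 2.02, 3.25, 1.89 and 1.46 CPM, and its change in AMPK KO was 0.59 ± 0.19 (adjusted p = 0.086, but 0.0359 in DESeq2's Wald test and 0.00182 with a passage block).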

How the data were processed

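Poly(A) RNA of 24 MEF libraries was sequenced as paired-end reads. The authors aligned the reads to mouse GRCm38 with STAR in the nf-core/rnaseq pipeline, with options for unique molecular identifiers, and quantified them with Salmon, per the study's methods and the submitters' processing notes. They deposited estimated counts per gene, and TPM and estimated counts per transcript for each library, with no pooling. Versions are not stated in a form used here. The methods also mention removal of a batch effect without naming the batch, which was not applied here.

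Estimated counts were rounded to whole numbers and tested with edgeR 4.0.16 in R 4.3.3 by the quasi-likelihood test (TMM scaling, filterByExpr, 6 group means, common BCV 0.079). Of 55487 genes 15828 were tested, holding 99.96% of the counts, and p-values were adjusted by Benjamini-Hochberg over all of them in each of 7 comparisons. A call needed an adjusted p under 0.05 and a fold of at least 1.2. CPM used TMM-scaled library sizes, and TPM was summed over the transcripts of a gene. All tests were two-sided. The procedure was first tested on simulated data. Totals of 26900240 to 34192685 counts set the counting precision, which leaves genes under 1 CPM the least certain.

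Named genes were up to 5 called members with the largest rise and 5 with the largest fall per comparison, all mitochondrial-encoded members, paired isoforms, core subunits, the called list genes with the largest changes and the targeted genes. Ndufa7, Ndufb3, Ndufb9, Ndufs7, Atp5c1, Uqcrh and the other members named outside this rule were chosen after their values were seen. Members and lists were chosen with earlier results of these data known. Alternatives were DESeq2 1.42.0 (size factors or Wald test), library size alone, no filter, no fold threshold, a replicate or passage block, a trend in length and GC content removed, and each library left out. A result that falls under a restriction on what may be printed is not reported here.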

Additional observations from a re-analysis of the deposited data

Results flagged for a closer look

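Libraries that stood apart from the other 3 of their group by Dixon's criterion at 95% were found in 40 of 520 groups of values (7.69%), 22 of them for members or their sums, where chance gives about 5%. AMPK KO DMSO replicate 1 was low in several mitochondrial-encoded genes, with 809.5 CPM for mt-Nd2 (others 1018 to 1021), 870.7 for mt-Nd4, 836.4 for mt-Nd5 and 168.5 for mt-Atp8 (others 288.1 to 291.2). WT torin1 replicate 4 was high for mt-Nd4 (1201 CPM), mt-Co1 (4231) and mt-Co2 (800.9) and low for Ndufs8 (35.85) and Ndufv1 (103.7, others 118.9 to 121.5). In WT with MK-8722, replicate 2 was high for Uqcrq (98.95 CPM, others 84.91 to 86.04) and low for Atp5k (46.27, others 62.09 to 63.43), replicate 3 was low for Cox5a (118.0) and high for Atp5b (1763), replicate 4 was high for Cox6b2 (0.06652) and Slirp (22.28), and replicate 1 was high for Ndufa4l2 (0.07786).

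In AMPK KO DMSO replicate 3, Ndufb7 was low (84.45 CPM) and Cox6a2 high (0.5492). In AMPK KO with MK-8722, replicate 2 was low for the sum of the nuclear members (9404 CPM, others 9591 to 9619), and replicate 4 was high for Cox7a2 (85.41). Sdhb was low in WT torin1 replicate 1 (72.4 CPM), Cox4i2 high in replicate 3 (0.02954) and Atp5a1 low in WT DMSO replicate 2 (803.8).

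Among the list genes, Myc was high in WT DMSO replicate 4 (212.1 CPM), WT MK-8722 replicate 2 (237.5) and WT torin1 replicate 4 (250.6), which are the 3 WT libraries of passage 12. WT DMSO replicate 4 was also high for Lrpprc (156.3 CPM), Ndufaf4 (31.55) and Tfb1m (6.656). AMPK KO DMSO replicate 3 was high for Mterf3 (15.99 CPM) and Esrrg (0.09153), and replicate 2 for Cycs (167.2). AMPK KO MK-8722 replicate 2 was high for Chchd10 (7.13 CPM) and Uqcc3 (25.78) and low for Ndufaf2 (14.38), and replicate 4 was high for Ttc19 (19.06). AMPK KO torin1 replicate 1 was high for Ppargc1a (1.413 CPM) and replicate 4 for Mterf1b (2.045). Esrrb was at 0.0 CPM in WT DMSO replicate 1 and at 0.03173 in WT torin1 replicate 2, the only one of that group above 0.

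Responses that differed between the genotypes, by the interaction term of edgeR's quasi-likelihood test, were found with MK-8722 for mt-Nd1 (0.3452 on the log2 scale, AMPK KO minus WT), Tbrg4 (0.3384), Fastkd3 (0.3553), Higd1a (0.2875), Cmc1 (-0.4356), Ttc19 (0.3472), Cox17 (-0.3614), Mterf1b (-0.9489) and Fastkd5 (0.2745). With torin1 they were Uqcr10 (-0.2983), Etfb (-0.3034), Gabpa (0.4152), Gabpb1 (0.3137), Ppargc1a (-1.288), Higd1a (0.3699) and Ndufaf3 (-0.5682).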

How the results depend on the processing

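Of 10624 values of named genes under alternatives, 10184 kept direction and side of the threshold, 181 lost and 259 gained a call, and 0 changed direction as called values. Of 164 called values, 118 kept their call in every alternative. The causes of the changes below were not tested. Leaving out 1 library at a time gave 46 to 51 nuclear members lower with torin1 in WT and 54 to 63 in AMPK KO. Depth limits the isoforms under 1 CPM.

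With libraries scaled by size alone, 0 mitochondrial-encoded members were lower with MK-8722 in WT (5.34% of all genes). With torin1 in WT, 3 nuclear were higher and 0 mitochondrial-encoded lower under this scaling (32.7% and 15.8% of all genes). In AMPK KO against WT, 4 nuclear were lower and 4 mitochondrial-encoded higher (18.6% and 38.4%). The MK-8722 interaction had 0 mitochondrial-encoded higher and 1 nuclear lower (4.01% and 8.52%), and the torin1 interaction 2 nuclear lower (3.64%). DESeq2 size factors and its Wald test each gave 2 nuclear lower in the torin1 interaction (3.47% and 3.92% of all genes). The Wald test gave 1 mitochondrial-encoded higher with MK-8722 in AMPK KO (1.24%). With no filter, 1 mitochondrial-encoded was higher with MK-8722 in AMPK KO (0.482% of all genes) and 1 nuclear in the MK-8722 interaction (2.77%). At an adjusted p alone, 3 nuclear were higher, 10 nuclear lower and 2 mitochondrial-encoded higher with MK-8722 in WT (28.1% of all genes passed). With torin1, 3 nuclear were higher in WT and 3 in AMPK KO (60.1% and 57.2% passed). Between genotypes, 35 nuclear were higher, 24 nuclear lower and 2 mitochondrial-encoded higher (69.5%). The MK-8722 interaction had 2 nuclear higher and 1 lower (16.7%), and the torin1 interaction 1 higher and 2 lower (9.87%). With the trend removed, nuclear members higher were 1 with MK-8722 in WT, 2 with torin1 in WT and 1 in the torin1 interaction. The shares of all genes higher were 10%, 26.1% and 3.77%.

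Replicate numbers did not pair the libraries: correlations of same-numbered libraries ran from -0.196 to 0.25, with 5 of 60 over 0.1. A replicate block gave 0 mitochondrial-encoded lower with MK-8722 in WT and 0 higher in the MK-8722 interaction (5.5% and 5.09% of all genes). It gave 1 nuclear higher in the torin1 interaction (4.1%) and left 49 and 53 nuclear members lower with torin1 (21.1% and 17.6%). Correlations of libraries of 1 passage ran from -0.0114 to 0.367, with a median of 0.129 and 15 of 24 over 0.1. Those of the same genotype and other passages ran from -0.249 to 0.0747, with 0 of 72 over 0.1. Libraries of 1 passage were thus more alike, and the main tests did not pair them. A passage block gave 1 nuclear higher with MK-8722 in either genotype (11.2% of all genes in WT and 2.62% in AMPK KO). It gave 1 mitochondrial-encoded higher with MK-8722 in AMPK KO (2.62%) and 2 in the MK-8722 interaction (7.58%). The torin1 interaction had 2 nuclear higher and 2 mitochondrial-encoded lower (6.24% and 5.52%).

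Leaving out 1 library, mitochondrial-encoded members lower ran from 0 to 3 with MK-8722 in WT, 1 to 3 with torin1 in WT and 2 to 5 in AMPK KO (5 without AMPK KO torin1 replicate 1), and those higher from 1 to 2 with torin1 in WT, 1 to 2 between genotypes and 0 to 1 in the MK-8722 interaction. Nuclear members higher ran from 0 to 1 with torin1 in AMPK KO and in both interactions, and those lower from 1 to 3 in the torin1 interaction. Shares of all genes were not formed for the fits with 1 library left out, so these counts have no background. Cox7b lost its torin1 call in WT without WT torin1 replicate 1.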
